A study of Mus musculus with 6 samples.

Results

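Glutathione S-transferases were followed in cortical RNA of a mouse line in which the S100a10 gene drives a tagged ribosomal protein from a bacterial artificial chromosome. The family was represented by 10 genes, Gstm1, Gstm2, Gstm5, Gstm6 and Gstm7 of the mu class, Gstt1, Gstt2 and Gstt3 of the theta class, Gsta4 of the alpha class and Gstp1 of the pi class. They were measured by 14 probe sets, those that carry the symbol of 1 of these genes alone, of 45101 on the array. A probe set is a group of short oligonucleotides against one transcript.

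Both groups came from cortex of untreated mice of line ES691, backcrossed from FVB onto C57BL/6 for 3 to 5 generations. In translating ribosome affinity purification (TRAP), tagged ribosomes are precipitated with the mRNA they carry, and this RNA formed the TRAP group of 3 samples. RNA left in the cortex lysate formed the unbound group of 3 samples, which sample titles call input. Ages, sexes and numbers of animals are not given, so the p-values below rest on the variation among these samples alone, part of which may be technical. The driver is a limit of the model, because the series text states that some non-neuronal cells are labelled too, and each TRAP value covers all labelled cells.

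Glutathione S-transferases join the tripeptide glutathione to electrophilic compounds, which makes drugs, lipid peroxidation products and other reactive molecules soluble and ready for export. Cytosolic enzymes work as dimers of subunits of the same class, and genes of a class often lie in clusters. In brain, mu class enzymes are known from astrocytes and the pi class enzyme from oligodendrocytes, and cells at the borders between blood, cerebrospinal fluid and brain are also known for these enzymes.

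Of the 10 genes, 9 reached a mean intensity of 50 in at least 1 group and were tested, while Gstm6 did not. Between TRAP and unbound RNA 6 were higher, 1 was lower and 2 were not called at an adjusted p of 0.05 (limma, Benjamini-Hochberg adjustment over all 12071 genes tested). Over all genes tested 23.3% were called higher and 45.7% lower, or 69.0% in either direction. The median log2 fold change of the 9 genes was 1.005, against -0.21 for all genes tested. Called genes at least 2-fold higher numbered 5 of the 9, against 7.29% of all genes, and 4 passed limma's treat test against a 2-fold change, against 4.53%. These 4 were Gstm2, Gstt1, Gstt2 and Gstt3. Gstm2, Gstt2 and Gstt3 reached the level minimum in TRAP RNA alone, so nothing is drawn from these shares: where both group means had to reach 50, 6 genes were tested and 3 were higher.

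**Figure D1:**
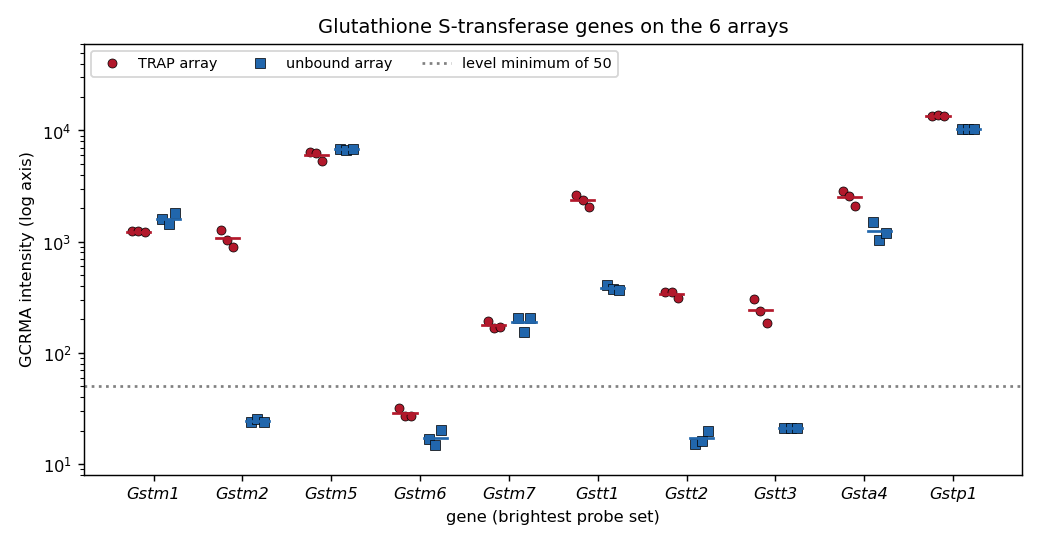
GCRMA intensity on a log axis for the brightest probe set of each of the 10 genes, with red circles for the 3 TRAP arrays, blue squares for the 3 unbound arrays and short lines at the group means. Gstm2, Gstt2 and Gstt3 lie below the dotted level minimum of 50 in unbound RNA and well above it in TRAP RNA, while Gstm5 and Gstm7 have similar values in both groups.

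Cell type markers on the same arrays are given beside these values. S100a10 itself was 5.86-fold higher in TRAP RNA (log2 2.55, SE 0.15, limma adjusted p = 8.35e-05). Markers of meningeal fibroblasts were higher in 14 of 14 tested genes. Their summed intensity was 75124 to 80352 on TRAP arrays and 8045 to 11738 on unbound arrays. Ptgds alone held 31155 to 32768 of the TRAP sums and 6077 to 9315, the larger part, of the unbound sums. Col1a1 lay under 50 in both groups. Of 7 pericyte and smooth muscle markers tested 6 were higher and 1 lower (sums 5565 to 6977 against 1990.1 to 2337), while Abcc9, Kcnj8 and Myh11 lay under 50 in both groups with lower means in TRAP RNA. Endothelial markers were higher in 2 and lower in 2 of 5 (sums 4321 to 4713 against 931 to 1031), with Cdh5, Flt1, Kdr, Pecam1 and Tek under 50 in both groups. Most of these TRAP sums was Itm2a alone, at 3928 to 4268 on TRAP arrays and 465 to 471 on unbound arrays. Choroid plexus and ependymal markers were higher in 3 and lower in 1 of 5 (sums 1155 to 1420.1 against 338 to 3147), with Aqp1, Folr1 and Foxj1 under 50 in both groups. The highest of these sums rests on Ttr, at 2886 on unbound replicate 3 against 159 and 76.3 on unbound replicates 1 and 2. Astrocyte markers were lower in 9 and higher in 3 of 15 (sums 22620.1 to 27762 against 34965 to 47124), oligodendrocyte markers were lower in 10 of 12 (sums 9871 to 15462 against 54613 to 60461), and those of their precursors in 5 of 6. Microglial markers were lower in 8 of 9 and interneuron markers in 9 of 12. Of 11 markers of glutamatergic pyramidal neurons, the cells named in the series title, 3 were higher and 5 lower. Over all genes tested 23.3% were called higher and 45.7% lower, and the counts of pyramidal markers lie near these shares. No marker was listed at 0. Each TRAP value covers all labelled cells, so the number of labelled cells of a type and the RNA captured from each cannot be told apart. The part of these cell types in the transferase values was not tested.

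The mu class genes, which form one cluster on chromosome 3, differed among themselves. Gstm2 was 43.7-fold higher in TRAP RNA, Gstm1 was 1.30-fold lower, and Gstm5 and Gstm7 were not called. Promoter sequence before the RefSeq start site (GRCm38.p6) is shown for Gstm2, whose level differed most between the groups, for its neighbour Gstm1, for Gstm5, which was not called, and for Gstt3 of the theta class, which was higher as well. Capitals mark the core of the antioxidant response element, through which the factor Nrf2 acts on many detoxification genes.
Gstm2, chr3:107986421-107986670, minus strand: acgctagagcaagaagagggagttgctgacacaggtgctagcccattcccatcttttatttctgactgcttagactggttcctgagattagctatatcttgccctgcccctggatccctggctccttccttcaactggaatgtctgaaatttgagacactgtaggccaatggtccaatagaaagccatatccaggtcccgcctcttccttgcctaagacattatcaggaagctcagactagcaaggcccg
Gstm1, chr3:108017974-108018223, minus strand: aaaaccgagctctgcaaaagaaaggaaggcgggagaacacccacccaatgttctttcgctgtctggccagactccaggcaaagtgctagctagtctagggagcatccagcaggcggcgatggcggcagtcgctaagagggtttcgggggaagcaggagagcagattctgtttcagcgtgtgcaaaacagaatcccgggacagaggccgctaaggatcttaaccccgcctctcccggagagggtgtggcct
Gstm5, chr3:107895604-107895853, plus strand: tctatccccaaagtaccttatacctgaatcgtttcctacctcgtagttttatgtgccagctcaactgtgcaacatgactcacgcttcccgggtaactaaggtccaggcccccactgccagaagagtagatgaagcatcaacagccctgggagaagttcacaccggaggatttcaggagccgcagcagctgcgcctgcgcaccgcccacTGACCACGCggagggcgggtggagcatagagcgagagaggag
Gstt3, chr10:75781423-75781672, minus strand: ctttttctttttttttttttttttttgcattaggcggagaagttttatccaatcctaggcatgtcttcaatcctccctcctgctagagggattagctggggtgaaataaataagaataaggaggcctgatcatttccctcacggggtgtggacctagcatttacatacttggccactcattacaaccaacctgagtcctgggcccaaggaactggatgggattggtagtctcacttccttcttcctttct

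The core motif was searched as TGACNNNGC on both strands in windows of 300 bases, from 250 before to 50 after each start site. RefSeq windows were found for 8 of the 10 genes, 13 windows in all; Gstt2 and Gsta4 have no entry. Gstm5 held TGACCACGC, beginning 42 bases before the start, and Gstm7 held TGACAAAGC in 1 of its windows, beginning 129 bases before that start. The motif was present in 2 of the 13 windows and in 12.4% of all 32851 windows in the table. Variants of these letters were not searched. The Gstp1 window holds TGAGTCAGC, with a G in place of the C of the motif, which was not counted. The core of the xenobiotic response element, GCGTG, through which the aryl hydrocarbon receptor acts, was present on either strand in 4 of the 13 windows, those of Gstm1, Gstm5 and Gstp1, and in 32.4% of all windows. Neither motif was found in the windows of Gstm2, Gstt1 or Gstt3, which says only that these letters are not there.

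Gstm2 measured 1265, 1042 and 899.9 on the TRAP arrays and 23.7, 25.3 and 23.7 on the unbound arrays. Every TRAP array lay far above every unbound array, and the unbound values were under the level minimum. The group means were 1069 ± 184 and 24.2 ± 0.968 (SD, n = 3), a log2 fold change of 5.45 (SE 0.13, 95% interval 5.11 to 5.79, limma adjusted p = 5.19e-06). With values under 50 raised to 50 the fold was 21.2.

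Gstm1, the neighbour of Gstm2, measured 1244, 1244 and 1210.0 on TRAP arrays and 1594, 1437 and 1809 on unbound arrays. All 3 TRAP arrays were lower than the unbound arrays, by a log2 fold change of -0.38 (SE 0.09, limma adjusted p = 0.0137). The difference was not called after centring each array on its median (log2 -0.13, adjusted p = 0.22) or after quantile normalisation (log2 -0.20, adjusted p = 0.063). Of its other probe sets, 2 reached the level minimum, and their _x_at suffix marks probes that may bind other transcripts too. One gave 1215, 1140 and 1183 against 1650, 1285 and 1962 and was not called (log2 -0.45, SE 0.16, limma adjusted p = 0.0577 over all 20298 probe sets). The other gave 173 on each TRAP array against 243, 243 and 254 (log2 -0.51, adjusted p = 8.54e-05). The remaining probe set lay under 50 in both groups, at 22.8 ± 0.568 against 47.4 ± 1.72. Each of the 4 probe sets had lower values on all TRAP arrays than on any unbound array. The same held for 49.6% of all genes tested, and the 4 probe sets measure the same RNA samples.

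Gstm5 measured 6445, 6269 and 5307 in TRAP RNA and 6766, 6608 and 6867 in unbound RNA. Its groups did not overlap, but the difference did not pass the test (log2 -0.17, SE 0.08, 95% interval -0.38 to 0.04, limma adjusted p = 0.118), and its sign turned after centring (log2 0.08). Gstm7 measured 193, 169 and 170.2 against 205, 153 and 205, with overlapping groups (log2 -0.07, 95% interval -0.42 to 0.28, adjusted p = 0.666; 0.18 after centring and 0.20 after quantile normalisation). A second Gstm7 probe set lay near the level minimum, at 47.9 ± 3.00 against 45.2 on all 3 unbound arrays. Gstm6 was measured at 32.1, 27.2 and 27.2 in TRAP RNA and 16.7, 14.9 and 20.3 in unbound RNA, all under the level minimum, and was not tested. Mu class genes are close in sequence, and how far their probe sets share signal was not tested.

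The theta class genes, which act on small halogenated compounds and sulfate esters among others, were higher together. Gstt1 was 6.14-fold, Gstt2 19.9-fold and Gstt3 11.4-fold higher in TRAP RNA, and each kept its call in every alternative in which it could be tested. Gstt1 measured 2606, 2388 and 2059.9 on TRAP arrays and 406, 375 and 364.7 on unbound arrays (log2 2.62, SE 0.10, limma adjusted p = 2.16e-05). It was above the level minimum in both groups, so its fold does not rest on a value near background. Gstt2 measured 354, 354 and 308 against 15.3, 16.2 and 19.9 (log2 4.31, SE 0.12, adjusted p = 8.29e-06). Gstt3 measured 303, 239 and 187 against 21.0 on each of the 3 unbound arrays (log2 3.51, SE 0.18, adjusted p = 5.69e-05). In all 3 genes the TRAP arrays lay above the unbound arrays. With values under 50 raised to 50, Gstt2 was 6.76-fold and Gstt3 4.77-fold higher, while Gstt1 stayed at 6.14-fold.

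Neighbouring genes were examined in RefSeq order, taking the 4 protein-coding genes on either side of each cluster. Around the theta class cluster on chromosome 10, 7 of 8 flanking genes were tested, of which 3 were higher and 2 lower. The shares over all genes tested were 23.3% and 45.7%, and nothing is drawn from such small counts around either cluster. The log2 fold changes of these flanking genes ran from -0.77 to 0.81, below those of Gstt1, Gstt2 and Gstt3. The flanking genes nearest to the cluster were Ddt, which encodes D-dopachrome tautomerase, at 2750.0 ± 216 against 1598 ± 411 (log2 0.81, SE 0.19, limma adjusted p = 0.015), and Mif, which encodes a related cytokine, at 7428 ± 389 against 5121 ± 115 (log2 0.54, SE 0.05, adjusted p = 4.17e-04). Gstt4, which lies between Gstt1 and Gstt2, was under 50 in both groups, at 11.6 ± 0.234 against 9.03 on each unbound array. Within the mu class cluster Gstm2 lies between Gstm3, under 50 in both groups (36.4 ± 0.466 against 35.6 ± 1.55), and Gstm1. Of 4 flanking genes tested there 1 was higher, Csf1, a growth factor of macrophages (log2 0.42), and 0 were lower in limma's test, where 0 of them were lower at an unadjusted p under 0.05 as well.

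**Figure D2:**
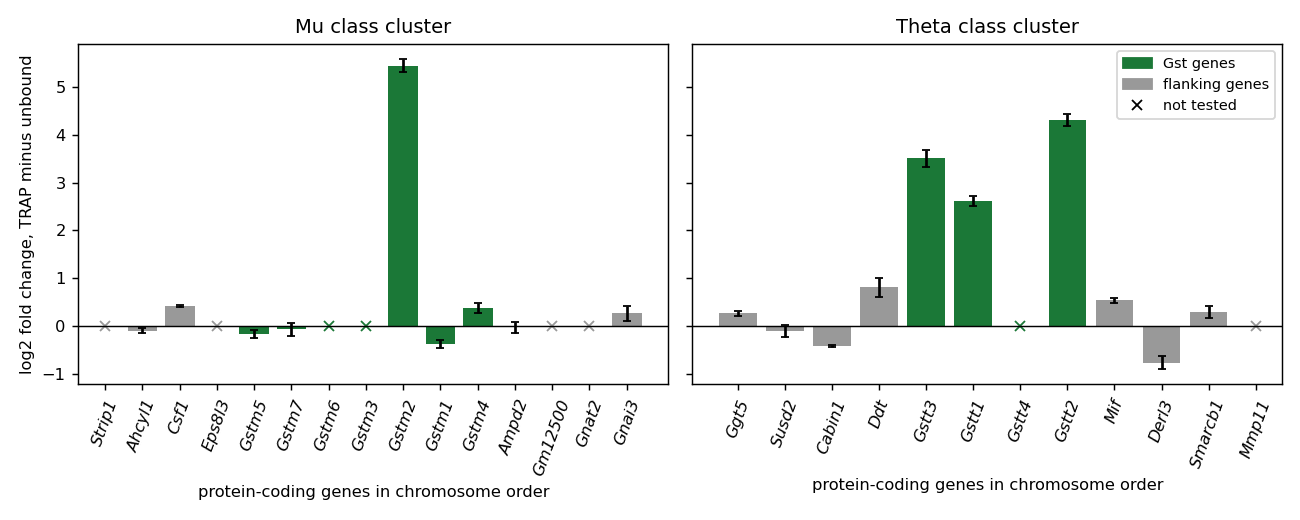
Log2 fold change between TRAP and unbound RNA for the Gst genes of each cluster (green) and 4 protein-coding genes on either side (grey), in chromosome order; error bars are the standard error from limma, and crosses mark genes not tested. A single mu class gene, Gstm2, stands at 5.45, and the other tested mu class genes stand between -0.38 (Gstm1) and 0.39 (Gstm4). The 3 tested theta class genes stand between 2.62 and 4.31.

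Gsta4 encodes the alpha class enzyme that conjugates hydroxynonenal, a product of lipid peroxidation. Its intensity was 2844, 2560.4 and 2089 on TRAP arrays and 1515, 1030.0 and 1207 on unbound arrays. The groups did not overlap, and the gene was 2.01-fold higher in TRAP RNA (log2 1.005, SE 0.19, 95% interval 0.53 to 1.48, limma adjusted p = 0.00593). Its fold lay at the edge of the 2-fold limit, and the treat test against a 2-fold change did not call it.

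Gstp1, the pi class enzyme, measured 13618.5, 13679.8 and 13494 in TRAP RNA and 10339, 10339 and 10333.5 in unbound RNA. All TRAP arrays were above the unbound arrays, by 1.32-fold (log2 0.40, SE 0.02, limma adjusted p = 1.10e-04). Oligodendrocyte markers had a median log2 fold change of -2.99 on the same arrays, with 10 of 12 lower and 2 not called. The part of these cells in the Gstp1 values was not tested. Gstp2, a close copy that lies beside Gstp1 on chromosome 19, was not analysed here, and whether its transcript adds to the Gstp1 signal was not tested.

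By log2 fold change as measured the genes ran Gstm2, Gstt2, Gstt3, Gstt1, Gsta4, Gstp1, Gstm7, Gstm5 and Gstm1. The order of the theta class genes is not settled, because Gstt2 and Gstt3 were under the level minimum in unbound RNA. With values under 50 raised to 50 Gstt1 (log2 2.62) came before Gstt3 (log2 2.25). The 6 genes above the minimum in both groups were compared with their neighbours in this order by their ratio on each array. An exact permutation test cannot give p under 0.1 with 3 arrays against 3. It could therefore call no pair, and the ratios are given as a description. The ratios did not overlap between TRAP and unbound arrays for Gstt1 over Gsta4 (difference 1.61 on the log2 scale, SE 0.13), Gsta4 over Gstp1 (0.61, SE 0.20) and Gstp1 over Gstm7 (0.47, SE 0.15). They overlapped for Gstm7 over Gstm5 (0.10, SE 0.14) and Gstm5 over Gstm1 (0.21, SE 0.11).

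**Figure D3:**
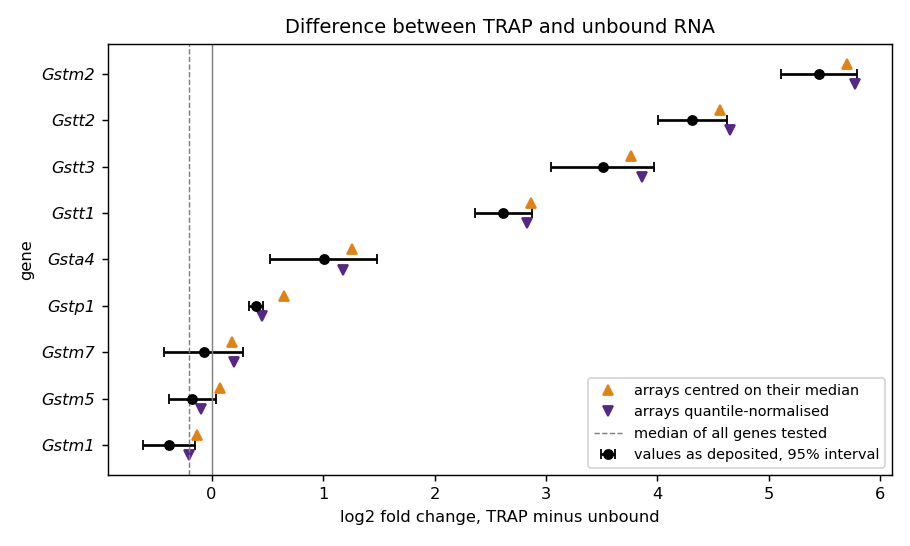
Log2 fold change between TRAP and unbound RNA for the 9 tested genes, with black points and 95% intervals for the values as deposited and triangles for the values after median centring and quantile normalisation; the dashed line marks the median of all genes tested at -0.21. The genes from Gstm2 to Gstp1 lie above 0 under each scaling, Gstm7 and Gstm5 change sign under at least 1 scaling, and Gstm1 stays below 0.

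The scaling of the arrays bears on the small differences. Over all genes the median log2 fold change went from -0.21 to 0.05 after centring and to 0.0037 after quantile normalisation, and the share of calls that were higher went from 33.8% to 54.1% and 50.8%. Of the 9 tested transferase genes, 6 had all 3 TRAP arrays above the unbound arrays and 2 had them below, where 25.9% and 49.6% of all genes did so. At the level of probe sets, 11 of 14 were tested, with 6 higher and 2 lower (1 without TRAP replicate 3), against 21.0% and 46.6% of all probe sets tested. Exact repeats of a value occurred between arrays of the same group in 17.9% to 21.6% of probe sets, depending on the pair, and in 0% between arrays of different groups. These shares cover all probe sets that reached the level minimum, whatever their number of symbols. Such repeats may be technical. Repeats were present in 6 of the 9 genes and enter the spreads and p-values of Gstm1, Gstm2, Gstm7, Gstp1, Gstt2 and Gstt3. Repeats enter those of other genes named here too. Gpx7 was 60.4 on each unbound array, Gstk1 was 401.6 on each TRAP array, and Csf1 had an SD of 0 in both groups. Whether the groups were summarised in separate runs is not stated, and a difference between such runs cannot be told apart from the difference between TRAP and unbound RNA in any fold change given here.

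Other transferases were described from a list of 18 genes. Of these 16 had a probe set and 7 were tested, of which 5 were higher, 1 was lower and 1 was not called (median log2 fold change 0.39). Over all genes tested 23.3% were higher and 45.7% lower. Mgst1, a microsomal transferase, measured 810.5, 837 and 776 on TRAP arrays and 172, 147 and 172 on unbound arrays (4.95-fold, log2 2.31, SE 0.08, limma adjusted p = 1.44e-05). Gstk1, the mitochondrial kappa class enzyme, was 2.50-fold higher (adjusted p = 2.65e-04) and the microsomal Mgst3 1.89-fold (adjusted p = 0.00616). Gstm4 was 1.31-fold and Gsto1, of the omega class, 1.23-fold higher, at adjusted p of 0.0237 and 0.0399. The count of 5 fell to 3 without TRAP replicate 1 and without unbound replicate 1 or 2. It was 1 of 3 tested without probe sets holding repeated values, and 1 of 7 by the treat test. Gstcd, which carries a transferase-like domain, was 1.81-fold lower at 111 on each TRAP array against 204 ± 35.4 (adjusted p = 0.00319), and Gstz1, an enzyme of tyrosine breakdown, was not called (log2 0.10, adjusted p = 0.268).

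Among genes for making and recycling glutathione 16 were tested, of which 3 were higher and 9 lower (median log2 fold change -0.31), or 5 higher after either rescaling of the arrays. Over all genes 23.3% were higher and 45.7% lower, so these counts lie near the background. Slc7a11, the cystine importer that supplies cysteine for glutathione, measured 466, 149 and 379.9 on TRAP arrays and 27.4, 26.9 and 32.9 on unbound arrays. The difference was 10.3-fold (limma adjusted p = 0.00191), but the gene reached the level minimum in TRAP RNA alone. With values under 50 raised to 50 it was 5.96-fold (limma adjusted p = 0.00578). TRAP replicate 2 was the lowest of its group but still above the unbound arrays. Cth and Cbs, enzymes on the route from methionine to cysteine, were 5.04-fold and 2.86-fold lower (adjusted p = 3.86e-05 and 4.00e-04), and the glutamate and cysteine transporter gene Slc1a1 was 2.55-fold lower (adjusted p = 6.32e-04). Gclc, the catalytic subunit of the rate-limiting enzyme, was 985 ± 68.1 against 1344 ± 3.55 (1.37-fold lower, adjusted p = 0.00136), its modifier Gclm was not called (log2 0.05), and the synthetase gene Gss was 1.28-fold lower (adjusted p = 0.0097).

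Among genes for peroxidases and other enzymes that use glutathione, 9 of 11 tested were higher and 0 lower by limma. Their median log2 fold change was 0.71, and 0 were lower at an unadjusted p under 0.05 too. Over all genes tested 23.3% were higher and 45.7% lower. Without probe sets holding repeated values 4 of 7 tested were higher, and by the treat test 4 of 11. Without the filter on low values 11 of 15 were higher and 2 lower. Gpx8, a peroxidase of the endoplasmic reticulum, measured 740.4, 787 and 748 on TRAP arrays and 49.5, 65.9 and 58.6 on unbound arrays, a 13.2-fold difference (adjusted p = 1.04e-05). Gpx3, the secreted peroxidase, was 4.02-fold higher (3.16-fold with values under 50 raised to 50), Gpx7 3.09-fold and the cytosolic Gpx1 2.91-fold, with adjusted p of 0.00101, 5.11e-06 and 1.44e-04. Gpx4, which reduces lipid peroxides within membranes, was 11391 ± 1085 against 6986 ± 874 (1.63-fold, adjusted p = 0.00422).

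Export and regulation were covered by shorter lists. Of 3 conjugate exporters tested, Abcc1 was 2.11-fold lower at 164, 164 and 169 against 349.9 on each unbound array (limma adjusted p = 5.37e-06), and Abcc4 (log2 -0.60, adjusted p = 0.0588) and Abcc5 were not called. The count of lower exporters was 2 without TRAP replicate 2 and without unbound replicate 2. Among 12 regulators and targets of Nrf2, 3 were higher and 4 lower (median log2 fold change -0.03), near the 23.3% and 45.7% of all genes. Nfe2l2, which encodes Nrf2, measured 1847, 1661 and 1238 on TRAP arrays and 351 on each unbound array (4.44-fold, adjusted p = 1.90e-04). Ephx1, an epoxide hydrolase, was 1.98-fold and Mafk, a partner of Nrf2, 1.70-fold higher (adjusted p = 0.00352 and 6.81e-04). Nfe2l1, a related factor, was 1.55-fold lower (adjusted p = 0.0375), a call lost after either rescaling (adjusted p = 0.14 and 0.12) and when TRAP replicate 1 or 3 (highest adjusted p = 0.114) or unbound replicate 2 or 3 (lowest 0.075) was left out. The counts became 5 higher and 1 lower after centring and 4 higher and 2 lower after quantile normalisation, and the lower count was 2 without TRAP replicate 1 or 3. The Nrf2 targets Nqo1 and Hmox1 lay under 50 in both groups, at 37.0 ± 7.87 against 20.3 ± 1.88 and at 43.6 on each TRAP array against 23.2 ± 8.49.

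**Figure D4:**
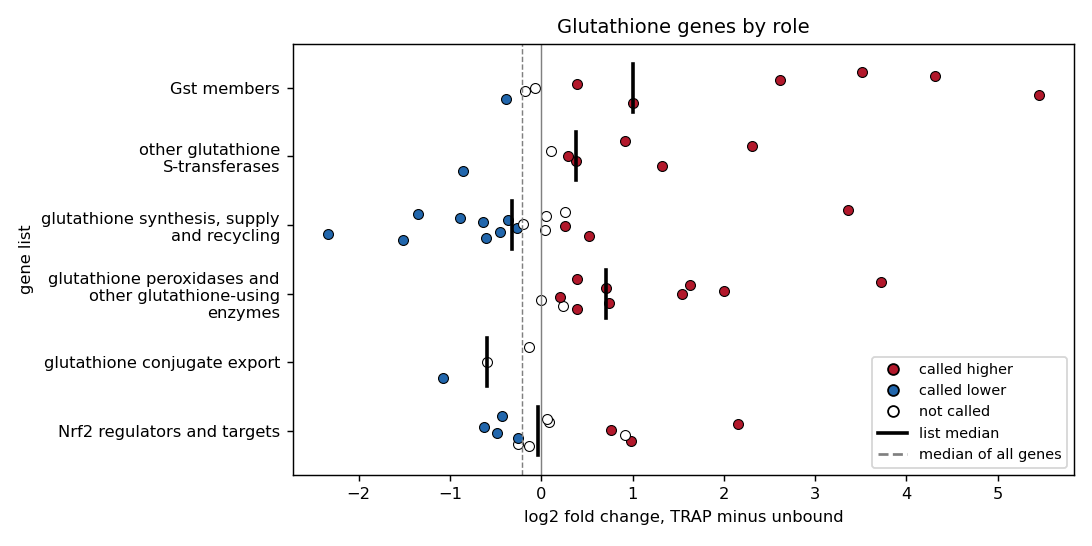
Log2 fold change between TRAP and unbound RNA of each tested gene, by role; red points were called higher, blue lower and open points not called, black bars are list medians and the dashed line is the median of all genes tested. The peroxidase list has 9 red and 0 blue points; the 9 blue and 3 red points of the synthesis list lie near the shares over all genes.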

How the data were processed

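Per the submitters' processing notes the authors made the deposited values, intensities on a linear scale, with GCRMA; no version is named in the sources used here. Per the labels' protocols 15 ng of RNA was amplified in a two-cycle protocol and hybridised to Affymetrix arrays with a biotin label. Whether the 6 arrays were processed in 1 run is not stated. Median intensity was 31.4 to 31.8 on TRAP and 42.4 to 43.1 on unbound arrays.

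Genes were named from the platform annotation, using the 34958 probe sets with 1 symbol (932 have several and 9211 none); Entrez IDs of 34754 matched RefSeq (GRCm38.p6), which changed 0 symbols. Probe sets with a mean of at least 50 in at least 1 group, a limit from the series text, were kept (20298). The probe set with the highest mean stood for its gene. Log2 intensities entered lmFit and eBayes of limma (version 3.58.1, under R 4.3.3) with group as the only term, two-sided, after a check on simulated data. The published probe set list that the submitters recommend was not used here. All members are named, and of each related list the 4 called genes with the largest differences. Marker lists, for which the rule names 2 genes each, are given by counts. Some of their genes are named for their part in a sum or for lying under 50. Genes beyond this rule were chosen after their values were seen. Members and lists were chosen with earlier results of these data known. The number of arrays limits the precision.

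The p-values given in the results come from the fit with group as the only term, which ignores pairs. Only in the block alternative were TRAP and unbound samples of the same number taken as pairs. Across 12071 genes their deviations from the group means correlated at 0.496, 0.456 and 0.367, and those of differently numbered samples at -0.373 to -0.0458. The alternatives were the pairing as a block, other filters and scalings, the choice of probe set, a trended variance, leaving out repeated values or single arrays, and the treat test, which was chosen after seeing the data.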

Additional observations from a re-analysis of the deposited data

How the results depend on the processing

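The calls of Gstm2, Gstt1, Gstt2 and Gstt3 held under every alternative that could test them (15 to 17 each). Gstm2, Gstt2 and Gstt3 drop out where both group means must reach 50, which left 3 transferase genes higher of 6 tested, and 3 probe sets of 8. Without probe sets holding repeated values 2 genes and 2 probe sets were higher and 1 probe set lower, of 4 tested. Among all 9 tested genes the 1 lower gene became 0 after centring, after quantile normalisation and by the treat test. Among all 11 tested probe sets the 2 lower became 1, 1 and 0. The cause was not tested. Signs turned for Gstm7 after centring (0.18) and quantile normalisation (0.20) and for Gstm5 after centring (0.0801). With the replicate block 6 genes were higher and 1 lower, and the block changed no other call of a transferase gene. Leaving out single arrays gave 6 higher and 1 lower genes throughout, 6 higher and 1 to 3 lower probe sets (1 without TRAP replicate 3), and for the 5 related lists together 16 to 20 higher and 13 to 16 lower. Those lists held 20 higher and 15 lower of 49 tested, against 8 and 9 of 31 without repeated values and 7 and 1 by treat. Of 964 other comparisons of a value with its alternative, 903 kept direction and call or count. Values under 50 limit the folds of Gstm2, Gstt2 and Gstt3.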
